A study of Mus musculus with 6 samples.

Results

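Long noncoding RNA genes were examined in RNA that came down with telomeric chromatin. The genes were those that the RefSeq annotation of mouse build mm10 (GRCm38.p6) types as lncRNA on chromosomes 1 to 19. A gene was taken up when a transcript model assembled by the authors had at least 50% of its exon bases inside the gene's span, and the model with the most reads stood for the gene. Terc, Malat1, Kcnq1ot1, Tug1, Norad and all Snhg genes were left out by name, which removed 16 genes of that type with a model. This gave 338 genes at 330 distinct models, of 7959 models in the series, because 8 models lay in the spans of 2 lncRNA genes each. Before 1 model was chosen per gene, 451 models lay in these spans. The choice used positions and summed reads over all libraries, TH59-DB included, and no test between groups.

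The RNA came from MEL cells, a mouse erythroleukemia line labelled with the strain C57BL/6 and crosslinked with formaldehyde. The 6 libraries formed 3 groups of 2: input chromatin, chromatin captured with masked TH59-DB, which the labels give as the negative control, and chromatin captured with TH59-DB, the telomere-directed pyrrole-imidazole polyamide probe. All groups shared the cells and the crosslinking, no genotype or drug differed between them, and the labels do not state that both libraries in a group were grown separately. P-values therefore measure only the spread between these libraries. Only the second library in each group carries a number in the labels, so the other was taken as number 1.

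A long noncoding RNA is transcribed, and often spliced and given a tail like an mRNA, but holds no long reading frame that is translated. Some such RNAs stay on chromatin near the gene they were made from, some act as hosts from whose introns or exons small RNAs are cut, and many are known only as cloned cDNAs or predicted gene models. Symbols that begin with Gm or end in Rik mark genes of that last kind. Among the 330 models, 228 stood for Gm-numbered and 61 for Rik-numbered genes, 14 for genes named as opposite-strand transcripts, 3 for small-RNA host genes and 24 for others. The roles of the Gm and Rik genes below are left unstated for that reason. No gene of the imprinted list (H19, Meg3, Rian, Mirg, Airn, Nespas and Peg13) had a model.

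A model in a lncRNA span need not be a transcript of that gene. Of the 330 models, 176 also lay in the span of a protein-coding gene, and 286 (86.7%) had a single exon, against 75.3% of all models. The strand relative to the gene was the same for 10 models, opposite for 23 and unknown for 297. Sense and antisense reads were therefore not told apart. Models were 53 to 6485 bases long (median 239), against 257 for all models.

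The libraries held 1803723 to 3122558 reads, of which 35.7% to 69.2% fell in the models. A library's level of a model is given as CPM, reads per 1000000 of that total, and 1 read was 0.32 to 0.554 CPM. The libraries differed in make-up. A single chromosome 16 model took 50.8% of masked TH59-DB 1, where 4341 models had 0 reads. In TH59-DB 1 no model of the series had fewer than 5 reads and no lncRNA-span model fewer than 7. Each other library had 1404 to 4341 models at 0. Shares of TH59-DB 1 and counts of models higher in it are thus partly set by which models were listed. Of 18 erythroid marker genes 9 had a model, and their summed level was 856 and 1179 CPM in the input, 520 and 1125 with the masked probe, and 537 and 436 with TH59-DB. Of 9 markers of other blood cells, Itga2b and Laptm5 had a model, with summed levels of 4.06 to 49.4 CPM per library, and 0 of 8 markers of other tissues had one. The part of these differences in the results below was not tested.

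Most lncRNA-span models held few reads. The median was 2.5 and 3.5 reads in the input libraries, 0 and 6 in the masked libraries, and 16 and 5 in the TH59-DB libraries. In the same order, 107 and 110, 207 and 105, and 0 and 71 of the 330 models had no read. Both input libraries were at 0 for 77 models and both masked libraries for 104. For 35 models, TH59-DB 1 was the only library with reads, and for 61 all 4 input and masked libraries were at 0. The filter on low counts left 181 models that were tested and 149 that were not. None of the 35 models seen in TH59-DB 1 alone was tested, and 2 of the 61 were. A model near 0 in the input and masked libraries could pass the filter only through TH59-DB, so counts and medians over the 181 are a description. Among the models named below, Gm30751, Gm19744, Gm16638, 1700044C05Rik and Gm40166 passed in this way. Their p-values for TH59-DB are therefore a description too.

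Together the 330 models took 0.383% and 0.253% of the reads in the input libraries, 0.252% and 0.355% with the masked probe, and 0.685% and 0.582% with TH59-DB. Both TH59-DB libraries lay above all 4 others, but not in every subset. For the 10 models on the gene's strand the shares were 0.0179% and 0.0249% in the input, 0.0242% and 0.034% with the masked probe and 0.0263% and 0.0175% with TH59-DB. For the 176 models in protein-coding spans TH59-DB 2, at 0.152%, lay below masked TH59-DB 2, at 0.217%. The group means over the 330 models were 0.318% ± 0.0926, 0.303% ± 0.073 and 0.633% ± 0.0724 (SD, n = 2 each). The exact (Clopper-Pearson) 95% intervals of the library shares were narrow, for example 0.245% to 0.259% in masked TH59-DB 1, and cover counting error only, since the reads carry no molecular identifiers. With 2 libraries a group, no exact permutation test could pass 0.05, so the shares were not tested. In bulk RNA, more captured molecules of a gene and fewer of the rest cannot be told apart.

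The models of Gm39273, 6030407O03Rik and Gm32035 carried much of this share, and that of Gm39273 was not among those on the gene's strand. They held 6.87% and 13.6% of the lncRNA-span reads in the input, 22.2% and 24% with the masked probe, and 33.4% and 59.9% with TH59-DB. Without them the shares of the library were 0.288% ± 0.0982 in the input, 0.233% ± 0.0524 with the masked probe and 0.345% ± 0.157 with TH59-DB (SD, n = 2 each). The remaining models took 0.456% of TH59-DB 1 and 0.234% of TH59-DB 2, so that TH59-DB 2 lay within the range of the input and masked libraries.

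**Figure D1:**
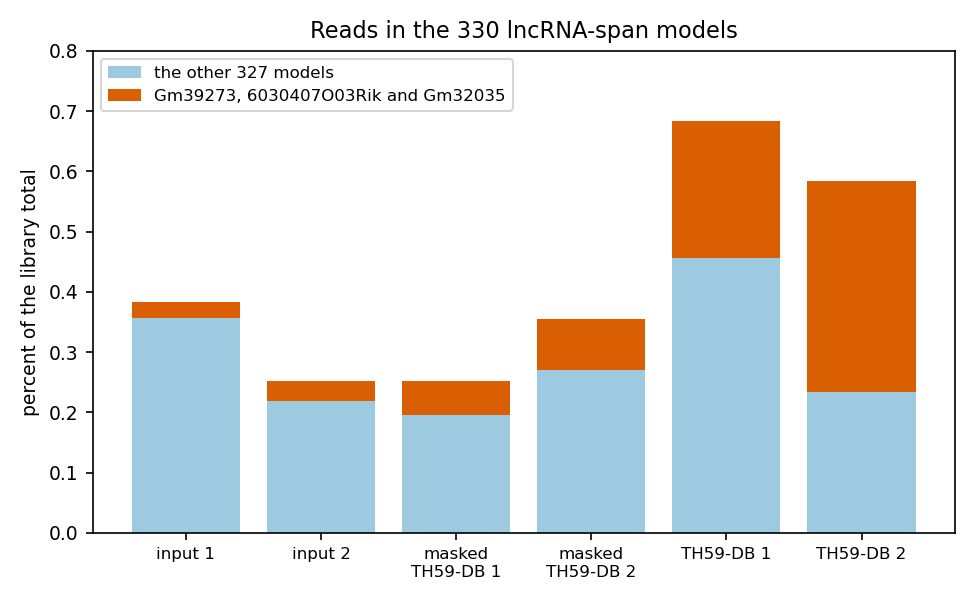
Bars show the percent of each library's total reads in the 330 lncRNA-span models (vertical axis), one bar per library, split into Gm39273, 6030407O03Rik and Gm32035 (orange) and the other 327 models (blue). The bars of TH59-DB 1 and 2 reach 0.685% and 0.582%, above the other 4, while the blue part of TH59-DB 2 (0.234%) lies among those of the input and masked libraries.

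TH59-DB set against the masked probe addresses which RNAs came down with the telomere-directed probe in excess of its control. Among the lncRNA-span models, 6030407O03Rik, 4732471J01Rik, Gm19744 and Gm30751 were higher in TH59-DB, and none was lower. These were 4 of 181 tested (2.21%), beside 1.41% of all 5385 models (edgeR quasi-likelihood test, adjusted p under 0.05). Before adjustment, 26 had a p under 0.05 as higher and 3 as lower; DESeq2 gave 10 higher calls and 0 lower ones. Over all models the unadjusted counts were 445 and 91, and those of DESeq2 236 and 0. The share of lncRNA-span models called was close to the background.

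The start-site windows of 3 of these 4 genes are shown because their models differed together, and because TTAGGG, the mammalian telomere repeat unit, can be looked for in them. The windows are from RefSeq (GRCm38.p6), 250 bases before to 50 after the start site, 5′ to 3′ on the gene's strand, and any TTAGGG is in capitals. The windows lie at chr1:73864417-73864716 (minus strand) for 6030407O03Rik, chr7:25376569-25376868 (plus strand) for 4732471J01Rik, where it is one of a pair of windows, and chr7:138608369-138608668 (minus strand) for Gm30751.
6030407O03Rik: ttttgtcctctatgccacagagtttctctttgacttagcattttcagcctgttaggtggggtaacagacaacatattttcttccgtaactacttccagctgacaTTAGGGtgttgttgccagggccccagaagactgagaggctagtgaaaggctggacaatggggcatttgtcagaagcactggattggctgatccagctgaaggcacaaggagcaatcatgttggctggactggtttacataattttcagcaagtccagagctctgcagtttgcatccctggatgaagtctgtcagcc
4732471J01Rik: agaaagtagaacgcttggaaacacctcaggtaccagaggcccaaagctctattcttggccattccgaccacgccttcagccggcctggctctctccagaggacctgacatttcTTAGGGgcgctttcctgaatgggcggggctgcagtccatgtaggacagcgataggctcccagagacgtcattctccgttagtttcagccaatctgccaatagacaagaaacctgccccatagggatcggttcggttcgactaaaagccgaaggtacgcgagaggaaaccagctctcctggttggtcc
Gm30751: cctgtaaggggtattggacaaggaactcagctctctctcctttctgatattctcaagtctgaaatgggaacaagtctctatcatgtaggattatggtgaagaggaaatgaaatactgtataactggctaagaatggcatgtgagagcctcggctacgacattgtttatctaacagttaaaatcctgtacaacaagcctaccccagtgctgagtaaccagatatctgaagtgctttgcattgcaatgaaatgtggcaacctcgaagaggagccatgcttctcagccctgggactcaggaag
The unit occurs once in the window of 6030407O03Rik, 146 bases before the start site, and once in that of 4732471J01Rik, 137 bases before it. It does not occur, on either strand, in the window of Gm30751. The other window of 4732471J01Rik, at chr7:25394463-25394762, held none. Nor did any window listed for genes called below against the input only: 1700044C05Rik, Gm30063, Gm31746, Gm40166, Gm46959 and LOC105247329. The captured models lay elsewhere: 10.7 kb from the start site for 6030407O03Rik, 183 kb for 4732471J01Rik and 14.8 kb for Gm30751. A single TTAGGG, searched on both strands (as TTAGGG or CCCTAA), was in 41 of 334 windows of the lncRNA genes (12.3%) and in 3483 of all 32851 windows (10.6%). The doubled unit, TTAGGG followed directly by TTAGGG or its reverse complement, was in 0 of 334 and in 4 of 32851 (0.0122%). Windows were listed for 256 of the 338 genes.

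6030407O03Rik (gene ID 109198) spans chr1:73618381-73864466 on the minus strand. Its model is a single exon of 352 bases at chr1:73853387-73853738, outside any protein-coding span, and the nearest coding gene, Tns1, is 56.5 kb away. The input libraries had 2 and 0 reads, masked TH59-DB had 18 and 39, and TH59-DB had 988 and 4865. In CPM that was 0.335 ± 0.474, 10.8 ± 2.37 and 1213 ± 941 (SD, n = 2 each). The groups did not overlap, and the TH59-DB libraries differed from each other more than 3-fold. It was 112-fold higher in TH59-DB than with the masked probe, with a counting interval of 91.8 to 157 around the pooled ratio of 119. The log2 fold change was 7.34 (SE 1.37, edgeR adjusted p = 0.0332), with 5.23 when TH59-DB 2 was left out and 8.26 when TH59-DB 1 was. Without masked TH59-DB 1 the call was lost (edgeR adjusted p = 0.0583, range over 13 alternatives 9.83e-16 to 0.0583).

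4732471J01Rik (gene ID 654804) spans chr7:25376819-25566417 on the plus strand, and its single-exon model of 833 bases lies at chr7:25559609-25560441, 19.6 kb from the coding gene Ceacam2. Reads were 6 and 1 in the input, 18 and 31 with the masked probe, and 318 and 534 with TH59-DB. The TH59-DB libraries were close to each other at 176 and 206 CPM, well apart from 9.13 and 9.93 CPM with the masked probe. It was 20.1-fold higher (log2 fold change 4.63, SE 0.91, edgeR adjusted p = 0.0388). Leaving out TH59-DB 2 gave a log2 fold change of 3.76, and leaving out TH59-DB 1 gave 5.22. The call was lost without masked TH59-DB 1 or TH59-DB 2, and the adjusted p ran from 9.69e-07 to 0.0827 over 13 alternatives of the edgeR fit and DESeq2.

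Gm19744 (gene ID 100503519) spans chr8:48843885-48873582 inside the span of Tenm3, which codes for a teneurin, a transmembrane protein of neurons. Its model has an exon of 61 bases outside the lncRNA span and one of 455 bases within it, at chr8:48862427-48862881. No read was counted in the input, 7 and 5 with the masked probe, and 129 and 120 with TH59-DB. The level was 58.9 ± 17.8 CPM with TH59-DB against 2.58 ± 1.38 with the masked probe (SD, n = 2 each), 22.9-fold apart (log2 fold change 4.64, SE 0.88, edgeR adjusted p = 0.0388). Leaving out masked TH59-DB 1 gave a log2 fold change of 5.58, and leaving out masked TH59-DB 2 gave 3.61. Without TH59-DB 1 or TH59-DB 2 the call was lost, and the adjusted p ran from 1.41e-04 to 0.244 over 13 alternatives of edgeR and DESeq2.

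Gm30751 (gene ID 102632763) spans chr7:138486659-138608418 on the minus strand, and its model of 85 bases lies at chr7:138593495-138593579, 196 kb from the coding gene Tcerg1l. All 4 input and masked libraries had 0 reads, and TH59-DB had 24 and 251, or 13.3 and 96.9 CPM. It thus passed the read filter only through TH59-DB. Against a floor of 3 reads per library the TH59-DB mean was at least 44.4-fold higher than with the masked probe (edgeR adjusted p = 0.0431). DESeq2 did not call it (adjusted p = 0.31), nor did the fit without TH59-DB 2, and the adjusted p ran from 2.66e-08 to 0.31 over 13 alternatives.

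**Figure D2:**
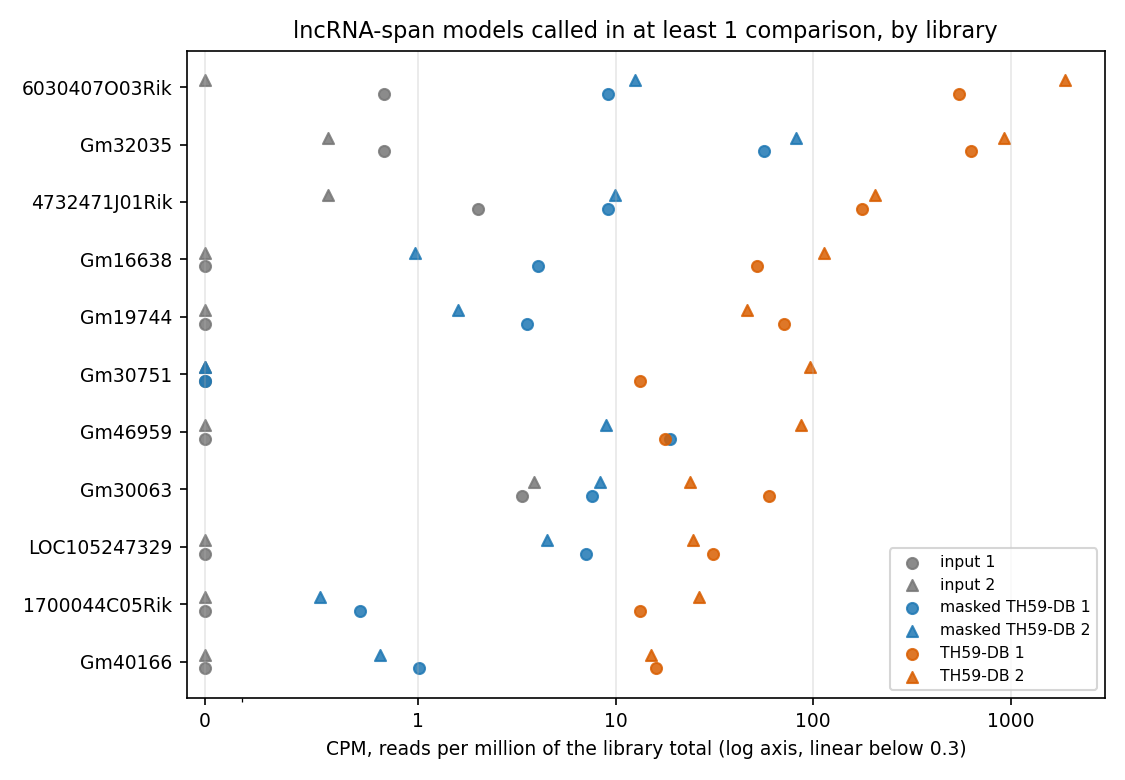
Each row is a lncRNA-span model called in at least 1 comparison and each point a library; the horizontal axis is CPM (log, linear below 0.3), circles are library number 1 and triangles number 2. The TH59-DB points (orange) of 6030407O03Rik lie at 548 and 1879, right of its masked points (blue) at 9.13 and 12.5, and Gm30751 is at 0 in the 4 input and masked libraries.

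The count of calls with the masked probe as reference moved with single libraries. Leaving out masked TH59-DB 1 gave 16 higher and 1 lower, beside 310 and 3 over all models in that fit. Leaving out masked TH59-DB 2 gave 58 higher and 7 lower, beside 1479 and 241 over all models. Leaving out TH59-DB 2 gave 1 higher and 0 lower, beside 32 and 0. These fits tested 276 to 288 lncRNA-span models. The median log2 fold change was 0.51 over the 181 lncRNA-span models and 0.30 over all models tested, also with models at 0 in a group set at their bound. Both TH59-DB libraries lay above both masked libraries for 41 of the 181 (22.7%), beside 16.1% of all models, and below them for 21 (11.6%), beside 14.7%. Within library number 2, TH59-DB was above masked TH59-DB for 120 of 281 models with reads (42.7%), against 28.7% of all models. Within library number 1, where every listed model had reads in TH59-DB 1, it was above for 290 of 330 (87.9%), against 84.8%.

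**Figure D3:**
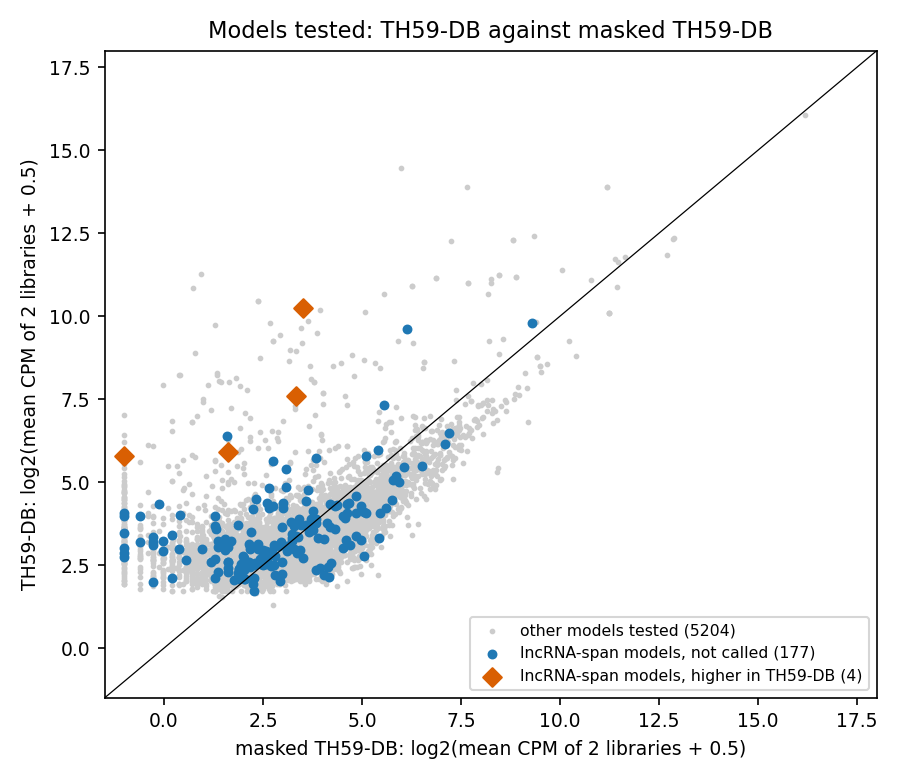
Points are the 5385 models tested, with log2(mean CPM of 2 libraries + 0.5) in masked TH59-DB on the horizontal axis and in TH59-DB on the vertical axis, and the line marks equal values. The 4 lncRNA-span models called (orange diamonds) lie above the line, and the 177 not called (blue) lie among the other models (grey).

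No lncRNA-span model passed as lower in TH59-DB than in masked TH59-DB in the edgeR fit of all 6 libraries. The smallest p-values in that direction belonged to Gm35187, A430105J06Rik, Gm41664, Gm40102 and Gm31834, whose log2 fold changes ran from -1.94 to -1.43. Gm35187 had 26 and 163 reads with the masked probe and 11 and 17 with TH59-DB (log2 fold change -1.94, SE 0.75, edgeR adjusted p = 0.357). Its model lies wholly in the pseudogene Rpl36a-ps2 as well, so its reads could belong to either. A430105J06Rik had 101 and 104 reads with the masked probe and 15 and 27 with TH59-DB, with no overlap in CPM (log2 fold change -1.93, SE 0.75, edgeR adjusted p = 0.36). All of these 5 models also lie in protein-coding spans.

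TH59-DB set against the input addresses enrichment over the starting chromatin. It shares the TH59-DB libraries with the comparison above, so the results are not independent. In it 11 of 181 lncRNA-span models were higher (6.08%), beside 3.58% of all models, and 0 were lower, beside 0.0371% (edgeR, adjusted p under 0.05). Before adjustment, p was under 0.05 for 25 as higher and 4 as lower, and DESeq2 gave 17 higher and 2 lower calls. Over all models the unadjusted counts were 477 and 277, and those of DESeq2 317 and 33. The 11 were the 4 models above with Gm32035, Gm16638, LOC105247329, Gm46959, 1700044C05Rik, Gm30063 and Gm40166. The model of Gm46959 is also that of Gm31746, since the genes overlap. Leaving out TH59-DB 2 gave 4 higher and 0 lower, beside 89 and 13 over all models. Leaving out masked TH59-DB 1 gave 38 higher and 3 lower (630 and 78 over all models), and masked TH59-DB 2 gave 41 and 3 (689 and 67). Fits without input 1, input 2 or TH59-DB 1 tested 284, 284 and 182 lncRNA-span models. Their counts of calls are therefore not set beside the 11 of 181.

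The 4 models called against the masked probe were far from the input. For 6030407O03Rik the log2 fold change was 11.88 (SE 1.71, edgeR adjusted p = 0.0033), and for 4732471J01Rik 7.29 (SE 1.06, edgeR adjusted p = 0.00335). Gm19744 was at least 57.3-fold higher (edgeR adjusted p = 0.00318) and Gm30751 at least 53.6-fold (edgeR adjusted p = 0.0173). The call for Gm30751 was again lost with DESeq2 and without TH59-DB 2, while the other 3 were called in all 13 alternatives. With single libraries left out, the log2 fold change ran from 9.64 (without TH59-DB 2) to 15.23 (without input 1) for 6030407O03Rik, and from 6.25 to 9.40 (the same libraries) for 4732471J01Rik.

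Gm32035 (gene ID 102634455, chr4:93830417-93864235) had a 2-exon model of 113 bases, with pieces of 84 and 29 bases at chr4:93844367-93844450 and chr4:93844487-93844515. Whether the short gap between them is an intron was not tested. The nearest coding gene, Tusc1, lies 509 kb away. It had 2 and 1 reads in the input, 111 and 257 with the masked probe, and 1132 and 2414 with TH59-DB. In CPM the order was 0.51 ± 0.226, 69.3 ± 18.4 and 780 ± 216 (SD, n = 2 each), and no library of a group overlapped with another group. Against the input TH59-DB was 10.60 log2 units higher (SE 1.26, edgeR adjusted p = 0.00287), and the call held in all 13 alternatives, with a log2 fold change of 9.33 without TH59-DB 2 and 11.51 without TH59-DB 1 or input 1. Against the masked probe the log2 fold change was 3.89 (SE 0.89, edgeR adjusted p = 0.0652), which did not pass. It passed with DESeq2, with no filter, without TMM factors, with the block, with summed model counts as library size and without TH59-DB 1 (adjusted p 1.01e-06 to 0.359 over 13 alternatives). Per length it stood highest of the 3 models with most reads in TH59-DB, at 6902 reads per kilobase of model and 1000000 library reads, against 3447 for 6030407O03Rik and 137 for Gm39273.

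Gm16638 (gene ID 102631889, chr7:83597048-83631841) and 1700044C05Rik (gene ID 73306, chr14:118365878-118398165) had the shortest models, of 53 bases each. Each joins a fragment of 44 or 49 bases to one of 9 or 4 bases, and the 9-base piece of Gm16638 lies outside its span. The 44-base piece lies in its span and in that of Tmc3, a transmembrane channel-like gene. Gm16638 had 0 reads in the input, 8 and 3 with the masked probe and 94 and 293 with TH59-DB, at least 80.4-fold above the input (edgeR adjusted p = 0.00446). Its log2 fold change against the masked probe was 5.42 (SE 1.12, edgeR adjusted p = 0.0527), which did not pass. 1700044C05Rik had 0 reads in the input, 1 and 1 with the masked probe and 24 and 68 with TH59-DB, at least 19.2-fold above the input (edgeR adjusted p = 0.0271). Both calls against the input were lost without TH59-DB 2, and that of 1700044C05Rik also without input 1 or input 2.

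The model shared by Gm46959 and Gm31746 (gene IDs 108169141 and 102634074), with exons of 75 and 10 bases between chr6:51047465 and 51058106, had reads with both probes. It had 0 in the input, 37 and 28 with the masked probe and 32 and 224 with TH59-DB. The groups captured with the probes overlapped at 18.8 and 8.97 CPM against 17.7 and 86.5 CPM. TH59-DB was at least 50.7-fold above the input (edgeR adjusted p = 0.00949), and masked TH59-DB at least 13.5-fold, which did not pass (edgeR adjusted p = 0.15). LOC105247329 (chr6:145365176-145379431), with a single exon of 381 bases, also had reads with both probes, and its probe groups did not overlap. It had 0 in the input, 14 and 14 with the masked probe and 56 and 64 with TH59-DB. That was at least 27.1-fold above the input (edgeR adjusted p = 0.007). The calls of these 2 models were lost without TH59-DB 2.

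Gm30063 (chr3:39460780-39598651) was the called model with most input reads, 10 and 11, beside 15 and 26 with the masked probe and 108 and 62 with TH59-DB. It was 11.6-fold higher in TH59-DB than in the input (log2 fold change 3.40, SE 0.75, edgeR adjusted p = 0.029), with a counting interval of 6.82 to 17.8. Gm40166 (chr3:146002396-146030688), in the span of Syde2, had 0 in the input, 2 and 2 with the masked probe and 29 and 39 with TH59-DB, at least 15.1-fold above the input (edgeR adjusted p = 0.0456). Both calls were lost when input 1, input 2, TH59-DB 1 or TH59-DB 2 was left out, and that of Gm40166 also without TMM factors.

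**Figure D4:**
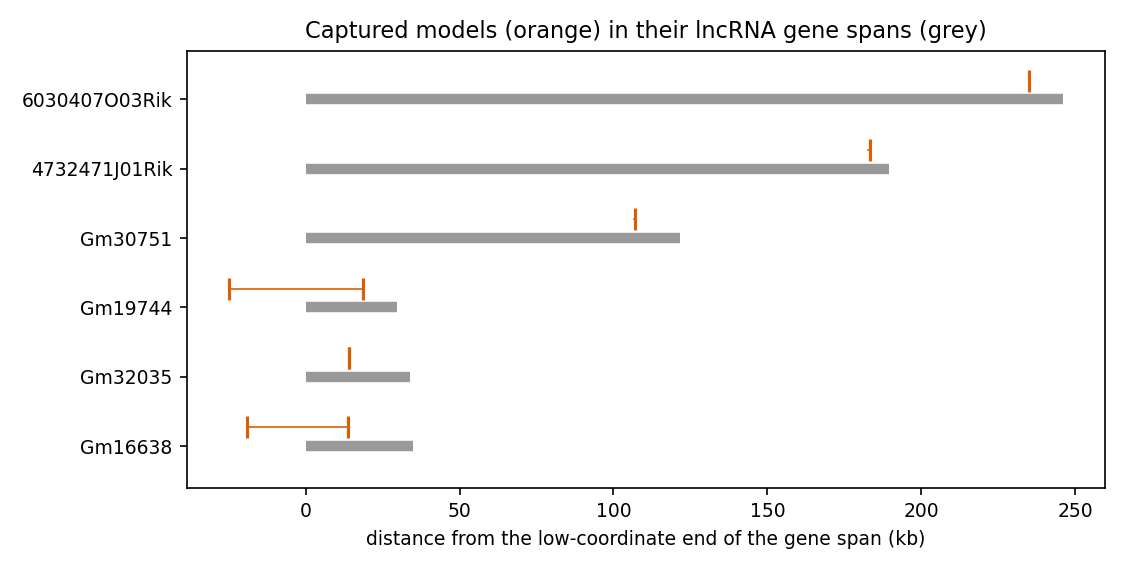
Grey bars are the annotated spans of 6 lncRNA genes with their low-coordinate end at 0 (kb, horizontal axis), and orange ticks are the exons of the captured model, joined by a line where it is spliced. The models of 6030407O03Rik, 4732471J01Rik and Gm30751 are short segments inside long spans (10.7, 5.98 and 14.8 kb from the high-coordinate end), and those of Gm19744 and Gm16638 begin 25.1 and 19 kb outside the span.

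These 11 models lay far from chromosome ends. The nearest to the distal mark, the outermost gene or model of its chromosome, was that of LOC105247329 at 4214 kb. By structure, 5 of 41 tested lncRNA-span models with more than 1 exon (12.2%) and 6 of 140 with a single exon (4.29%) were called against the input. Over all models tested the shares were 3.57% and 3.59%. Of the 5 called, Gm16638, 1700044C05Rik and Gm46959 hold a piece of 9, 4 and 10 bases, so their splicing is uncertain. By position, 8 of 83 tested outside protein-coding spans (9.64%) and 3 of 98 inside them (3.06%) were called, beside 15.4% and 1.62% of all models. The median log2 fold changes against the input were 1.33 for 83 tested models outside protein-coding spans and 0.37 for 98 inside, beside 0.03 over all models. For comparison, the medians were 2.36 over 514 models in no gene span and -0.13 over 4473 models in protein-coding spans and no lncRNA span. The difference between these sets was not tested.

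Over the 181 models the median log2 fold change against the input was 0.67, beside 0.03 over all models. Both TH59-DB libraries lay above both input libraries for 68 (37.6%), beside 22.5% of all models, and below them for 19 (10.5%), beside 23.5%. Within library number 2, 141 of 276 models with reads (51.1%) were above the input, against 33.9% of all models. Within library number 1, where every listed model had reads in TH59-DB 1, it was 299 of 330 (90.6%), against 81.5%.

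Among models with lower values than the input, Gm46595, Gm35187, Gm36876, Rps18-ps4 and Gm39429 had the smallest p-values, and none passed in the edgeR fit. Gm46595 had 1442 and 251 reads in the input and 89 and 35 in TH59-DB, and did not overlap in CPM (log2 fold change -3.61, SE 1.03, edgeR adjusted p = 0.107). Gm36876 had 2396 and 245 reads in the input and 203 and 28 in TH59-DB, and its groups overlapped (log2 fold change -3.46, SE 1.24, edgeR adjusted p = 0.212). Rps18-ps4, named as a ribosomal protein pseudogene but typed as lncRNA, had 322 and 459 reads in the input and 105 and 79 in TH59-DB (log2 fold change -1.63, SE 0.61, edgeR adjusted p = 0.235). Its model shares 94% of its bases with the pseudogene Rps18-ps6. Some alternatives called 3 of these models lower. Gm46595 passed with DESeq2, with no filter, without TMM factors, with the replicate block and without input 2 or either masked library (adjusted p 0.00218 to 1 over 13 alternatives). Gm36876 passed with DESeq2, with no filter, without TMM factors and with the block (0.00508 to 1). Gm35187 passed with the block, with only the groups compared and without either masked library (0.0191 to 1).

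The masked probe set against the input shows what the control capture itself brought down, and it shares libraries with both comparisons above. Gm32035 was higher in masked TH59-DB, with a log2 fold change of 6.72 (SE 1.12, edgeR adjusted p = 0.0402). It was 1 of 181 models (0.552%), beside 0.26% of all models, and 0 were lower, beside 0% of all (edgeR). Unadjusted, 12 as higher and 8 as lower had a p under 0.05, and DESeq2 made 4 higher and 1 lower calls. Over all models the unadjusted counts were 208 and 159, and those of DESeq2 88 and 17. The call for Gm32035 was lost without input 1 (edgeR adjusted p = 0.185), without input 2 (0.388) and with all models of a gene summed (0.0552), over a range of 9.08e-09 to 0.388. Leaving out either input library gave 0 calls, also over all models. Leaving out masked TH59-DB 1 gave 5 higher and 1 lower (69 and 30 over all models), and either TH59-DB library 2 higher and 0 lower (69 and 0, and 58 and 6, over all models). Leaving out masked TH59-DB 2 turned the balance, with 23 higher and 27 lower, beside 409 and 1004 over all models. The median log2 fold change was 0.10, beside -0.26 over all models. Both masked libraries lay above both input libraries for 45 of the 181 (24.9%), beside 15.9% of all models. They lay below for 15 (8.29%), beside 14.4%.

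The 5 models with the smallest p-values below the input were Gm36876, D230017M19Rik, Gm46595, LOC115488500 and Vaultrc5, the last a vault RNA gene. Gm36876 passed as lower with DESeq2 (adjusted p = 0.0224). It also passed in edgeR without TMM factors (adjusted p = 0.0213) and with the block (adjusted p = 0.0406). D230017M19Rik had 235 and 36 reads in the input and 15 and 26 in masked TH59-DB (log2 fold change -2.93, SE 1.02, edgeR adjusted p = 0.537). Vaultrc5 had 87 and 64 reads in the input, 0 and 28 with the masked probe and 68 and 17 with TH59-DB (masked against input, log2 fold change -2.92, SE 1.16, edgeR adjusted p = 0.649). LOC115488500 had 38 and 5, 0 and 2, and 7 and 8 reads, and 98.5% of its model is the tRNA gene n-TMcat16. Without masked TH59-DB 2 the log2 fold changes of Vaultrc5 and LOC115488500 were -9.03 and -7.34. Without masked TH59-DB 1 they were -2.02 and -4.03.

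The most abundant models showed other patterns. Gm39273 (chr8:122870413-122917878), whose model of 6485 bases lies in the span of Ankrd11, a chromatin regulator, had 782 and 977 reads in the input, 974 and 2361 with the masked probe and 2001 and 1745 with TH59-DB. Its level was 302 ± 56.7, 625 ± 185 and 892 ± 308 CPM (SD, n = 2 each), and the probe groups overlapped. Against the masked probe its log2 fold change was 0.71 (SE 0.76, edgeR adjusted p = 0.933), and against the input 1.54 (SE 0.78, edgeR adjusted p = 0.426). The 10 models on their gene's strand together took 0.0179% of input 1, less than Gm39273 alone at 262 CPM. Its model was therefore not among those 10 and need not be a transcript of that gene. 5430416N02Rik (chr5:100420842-100429535), a spliced model of 3 exons, stood at 73 and 77.8 CPM in the input, 129 and 162 with the masked probe and 111 and 66.8 with TH59-DB, and passed no test.

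The input libraries differed for several abundant models. Of 17 models with at least 100 reads in an input library, 6 were more than 5-fold higher in input 1 than in input 2, against 45 of 974 among all models. These were Gm15564 (21.8-fold), Gm39429 (15.3-fold), Gm36876 (9.35-fold), Gm19951 (6.35-fold), D230017M19Rik (6.24-fold) and Gm46595 (5.49-fold). Another 10 were within 3-fold. Gm36876 stood at 803 and 85.8 CPM in the input, 45.7 and 38.1 with the masked probe, and 113 and 10.8 with TH59-DB. Gm19951 stood at 418 and 65.8, 227 and 47.7, and 113 and 29, so in each group library number 1 was the higher. Any value of these 6 models against the input rests on a group whose libraries disagree.

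**Figure D5:**
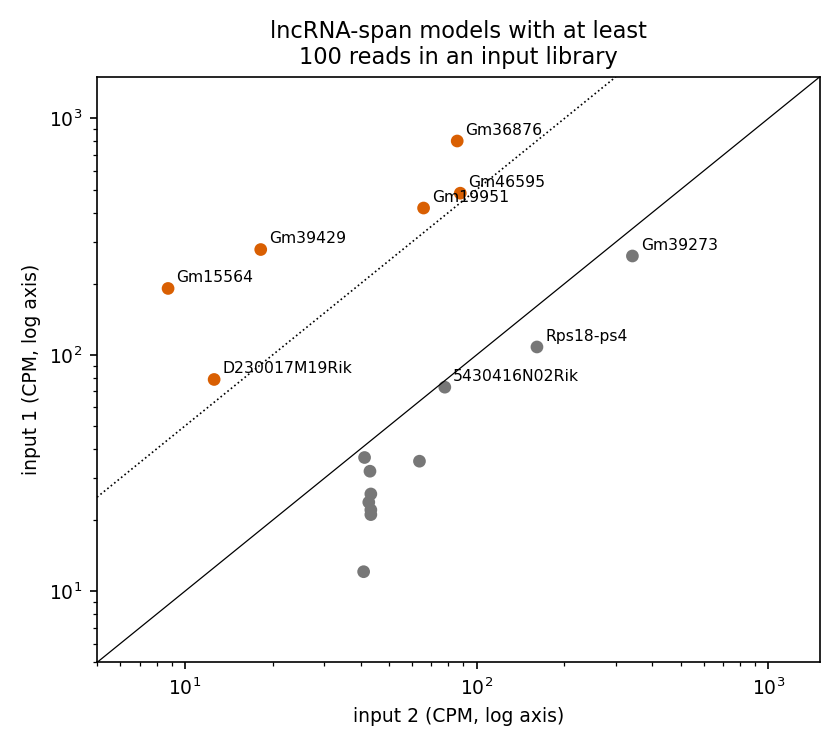
Each point is 1 of the 17 lncRNA-span models with at least 100 reads in an input library, with its CPM in input 2 (horizontal) and input 1 (vertical), both on log axes; the solid line marks equal values and the dotted line a 5-fold excess in input 1. The 6 models above the dotted line (orange) include Gm15564 at 191 CPM in input 1 and 8.76 in input 2.

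Gm39429 (chr9:110266638-110282670, minus strand) is shown with a small RNA because 84.7% of its model lies on Mir6236, a microRNA gene on the other strand. The mature sequence from RefSeq (GRCm38.p6, chr9:110281353-110281371, plus strand, 19 bases) is printed 5′ to 3′ with its seed, bases 2 to 8, in capitals.
mmu-miR-6236: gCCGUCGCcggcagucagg
Gm39429 had 832 and 52 reads in the input, 158 and 91 with the masked probe and 104 and 23 with TH59-DB, and its reads could belong to either gene. Other short genes also fell on lncRNA-span models. The model of D230017M19Rik lies to 98.4% on the snRNA gene Gm25939, that of Epb41l4aos on the snoRNA gene Gm23639, and those of LOC115488500 and Gm30581 on tRNA genes. A pseudogene held most of 8 models.

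Well-known lncRNA genes were sparse. Of a list of 35, 31 had a lncRNA entry on these chromosomes and 6 had a model; 5 were tested and none passed in any comparison. Zfas1, a host of C/D box snoRNAs, had 52 and 49 reads in the input, 57 and 55 with the masked probe and 34 and 27 with TH59-DB (TH59-DB against masked, log2 fold change -0.61, SE 0.72, edgeR adjusted p = 0.949). Epb41l4aos had 46 and 16, 35 and 31, and 33 and 20 reads (log2 fold change -0.10, SE 0.93). Mir17hg, which carries the miR-17-92 microRNA cluster, had 17 and 25, 12 and 53, and 31 and 21 reads (log2 fold change 0.34, SE 0.89). Zfas1, Epb41l4aos and Mir17hg were the small-RNA host genes by name, and their levels overlapped between TH59-DB and masked TH59-DB. Pvt1, a lncRNA next to Myc, had 13 and 13, 9 and 32, and 27 and 24 reads (log2 fold change 0.94, SE 1.01). Dleu2, the host of miR-15a and miR-16-1, had 4 and 6, 0 and 32, and 15 and 13 reads (log2 fold change 0.76, SE 1.59). Lncpint, a p53-induced lncRNA, had 35 reads in TH59-DB 1, 1 in TH59-DB 2, 2 in masked TH59-DB 2 and none elsewhere, and was not tested. Of the 14 models of opposite-strand genes 7 were tested and none passed, with a median log2 fold change of 0.61 against the masked probe.

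Within 1 Mb of the distal mark lay 16 of the 330 models, of which 8 were tested and none passed in a comparison. Models such as Gm28876 and LOC108167564 passed the read filter only through TH59-DB, so no summary over the 8 is given. Gm1976 (chr17:94759942-94834799), 69.8 kb from the mark, had 43 and 64 reads in the input, 125 and 93 with the masked probe and 141 and 632 with TH59-DB. In CPM its TH59-DB values of 78.2 and 244 lay above all others, with a log2 fold change of 2.17 against the masked probe (SE 0.91, edgeR adjusted p = 0.418; 0.23 without TH59-DB 2) and 3.48 against the input (SE 0.96, edgeR adjusted p = 0.0928). A630089N07Rik (chr16:98062512-98082439), 43.7 kb from the mark, had 9 and 19, 0 and 39, and 63 and 163 reads (against masked, log2 fold change 3.54, SE 1.20, edgeR adjusted p = 0.259). It passed with DESeq2, with no filter, with the replicate block and without masked TH59-DB 2 (adjusted p from 0.00161 to 0.643 over 13 alternatives). 4930526I15Rik, 70.6 kb from the mark on chromosome 9, had 7 and 11, 3 and 15, and 15 and 43 reads. Gm28876 and LOC108167564, 839 and 563 kb from it on chromosomes 15 and 8, had at most 6 reads in any input or masked library and 18 to 35 in TH59-DB. Gm28876 passed against the masked probe with DESeq2 (adjusted p = 0.0247) and without either masked library (adjusted p from 3.27e-04 to 0.436 over 13 alternatives). 4930526I15Rik and LOC108167564 passed only without masked TH59-DB 2 (adjusted p = 0.0397 and 0.0151; up to 1 and 0.82 over the alternatives). The 5 were picked as most abundant by reads that include TH59-DB, so their values are a description and are not set beside those of all models.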

How the data were processed

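RNA sequencing counts of 6 libraries (input, masked TH59-DB, TH59-DB; 2 each) were used. The authors deposited whole-number counts per assembled transcript model and FPKM values; the submitters' processing notes name cutadapt, HISAT2, Cufflinks, featureCounts and mm10, without versions or roles. The strand setting is not given in the sources used here. Models were joined across files on chromosome, starts and ends (7695) or on chromosome, first start and length (264). Library totals, recovered from counts, lengths and the authors' FPKM, were the library sizes.

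Counts of all models were fitted with edgeR 4.0.16 in R 4.3.3 (filterByExpr and TMM; robust glmQLFit and glmQLFTest on a group term over all 6 libraries), with Benjamini-Hochberg adjustment over 5385 models and a threshold of 0.05; tests were 2-sided. The biological coefficient of variation was 0.702. On simulated counts for TH59-DB against masked TH59-DB (5354 models), 84 of 100 models changed by 3 log2 units and 98 of 100 changed by 5 were called, with 10 false calls. The simulated spread was set lower than that of these data. Only models with more expected reads than the median lncRNA-span model were changed. The simulation therefore checks the fit and does not give the power for these models. A fold is the ratio of mean CPM. For a group without a read in either library, the floor was 3 reads per library ("at least"). That bound is for the mean of the other group, and 1 of its libraries can lie below it. Counting intervals are 95% exact binomial intervals of pooled reads.

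Named genes were those called, the 5 of smallest p where none was called in a direction, the 5 most abundant per group, the 5 most abundant near a distal mark and well-known lncRNA genes with a model; Gm15564, Gm30581 and Gm31746 were named after their values were seen. The genes and lists were chosen with earlier results of these data known. RefSeq tables gave gene spans and sequences. DESeq2 1.42.0 and other settings were tried as alternatives.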

Additional observations from a re-analysis of the deposited data

How the results depend on the processing

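The calls rest on few libraries. In order for TH59-DB against masked TH59-DB, TH59-DB against input and masked TH59-DB against input, the counts of calls were 4, 11 and 1. Over all models they were 76, 195 and 14. With DESeq2, which fitted all 330 lncRNA-span models, the counts were 10, 19 and 5, beside 236, 350 and 105 of all 7959 models. With no filter on low counts, also over 330, they were 10, 18 and 5, beside 206, 312 and 113 of all 7959. Leaving out 1 library gave 1 to 65, 4 to 44 and 0 to 50, where a lone library was assumed to vary like the other groups. With only models on the gene's strand, of which 10 were tested, they were 0, 1 and 0. With the replicate number as a block there were 7, 16 (13 higher, 3 lower) and 7 calls, beside 191, 363 and 106 over all models. Deviations of same-numbered libraries were little correlated (-0.01, 0.09 and 0.13), which cannot decide whether they share a batch. The number 2 files differed from the number 1 files in the coordinates of 264 models. The labels name no batch. With summed model counts as library size, an alternative chosen after seeing the data, the counts against masked TH59-DB and for masked TH59-DB against input were 7 and 2. Over all models these were 155 and 50. With only the groups compared, TH59-DB against input had 24 calls of 155 tested, beside 497 over all models. For masked TH59-DB against input, totals without TMM factors gave 6 and summed models of a gene 0, beside 108 and 12 over all models.

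The shares of reads in input, masked TH59-DB and TH59-DB became 0.0214%, 0.0291% and 0.0219% with models on the gene's strand, 0.195%, 0.129% and 0.4% outside protein-coding spans, and 0.648%, 0.595% and 1.4% of the reads in models. With all models of a gene summed, the TH59-DB share was 0.95%.

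Over 49 results of named genes, 557 alternative values kept direction and side of the threshold, 37 passed it newly, 27 lost it and 14 turned direction. Against masked TH59-DB, without masked TH59-DB 1, the log2 fold change turned to -0.25 for Dleu2, 0.65 for Epb41l4aos, 0.67 for Gm19951, 0.15 for Gm39429, -0.13 for Mir17hg and 0.09 for Zfas1. The other end of the range over left-out libraries was, in the same order, 6.98, -1.04, -2.43, -2.16, 0.50 and -1.47, all without masked TH59-DB 2. With the block, that of Epb41l4aos was 0.09. Gm36876 was -0.08 with no filter, -0.24 with the block, and -0.07, -0.09, -0.57 and -1.24 without input 1, input 2, masked TH59-DB 2 and TH59-DB 1, and 0.96 without TH59-DB 2. Against the input, Gm39429 was 0.71 without input 1 and -3.83 without input 2. None of the turned values passed, and the cause was not tested. Low depth limits the rest: 149 of 330 models were not tested.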
